A study of Mus musculus with 4 samples.

Results

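Transcripts of 10 circadian clock genes were measured in mouse liver: Arntl (the gene of the protein BMAL1), Clock, Npas2, Per1, Per2, Per3, Cry1, Nr1d1, Nr1d2 and Dbp. They were chosen by gene symbol, and all 10 were found among the 13903 genes of the deposited table. Levels are CPM, reads per 1000000 reads on the listed genes. Differences between libraries were compared for 8963 genes, those whose average level reached 10 CPM, which included 9 of the 10 clock genes; Npas2, with a mean of 4.51 CPM, fell under that limit and is given as values only.

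The study sequenced polyadenylated RNA from liver of OGT-Floxed mice (background C57BL/6J), all fed the CDE diet, a choline-deficient and ethionine-supplemented feed that injures the liver. AAV8-TBG-CRE was given to the OGT-KO group and AAV8-TBG-eGFP to the control group, so both groups carried the floxed allele, the diet and a virus. The TBG promoter is active in hepatocytes, so the other cells of the liver were not targeted. Collection was either without recovery or at 7 days of recovery, which gave 4 conditions with 1 library each, and each library was a pool of equal RNA from 3 mice. The labels give no age, no sex and no hour of collection. Clock transcripts change with the hour of the day, so a difference in the hour of collection and a difference between conditions cannot be told apart in these values.

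The clock of a mammalian cell is a loop of transcription that takes about a day. BMAL1 pairs with CLOCK, or with its relative NPAS2, and the pair binds E-box elements to switch on the Per and Cry genes, Nr1d1, Nr1d2 and Dbp. PER and CRY proteins then block the pair, while the nuclear receptors REV-ERBα (Nr1d1) and REV-ERBβ (Nr1d2) repress Arntl, Npas2 and Cry1 through ROR elements (ROREs). DBP carries the rhythm to D-box elements of liver genes. OGT, the enzyme that adds O-GlcNAc to proteins, is known to modify several clock proteins.

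The promoters of some clock genes hold these elements close to the start of transcription, and 4 stretches are shown for that reason, 5′ to 3′ on the strand of the gene, with the element in capitals. RefSeq promoter windows of 300 bases (250 before and 50 after the start, mouse GRCm38.p6) were found for 9 of the 10 genes, with 13 windows in all. Per2 was the exception. The E-box CACGTG stood in the windows of Per1 (166 bases before the start) and Cry1 (60 bases before). The Per1 window begins at position 69098699, inside the gene span given below (69095217 to 69109960), so it belongs to a start within that span. Of all 27025 genes with a window, 8.09% held it. The D-box, searched as TTATGTAA or TTACGTAA on both strands, stood at 2 places in the window of Per3, 205 and 158 bases before the start, and in 1.23% of all genes. The RORE core TAGGTCA stood in the window of Arntl, 30 bases after the start, and in 2.97% of all genes. A match describes the letters and is not evidence of binding in these livers.
Per1, chr11:69098744-69098833, plus strand, E-box: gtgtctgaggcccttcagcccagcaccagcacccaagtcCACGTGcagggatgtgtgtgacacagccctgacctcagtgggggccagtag
Cry1, chr10:85185070-85185159, minus strand, E-box: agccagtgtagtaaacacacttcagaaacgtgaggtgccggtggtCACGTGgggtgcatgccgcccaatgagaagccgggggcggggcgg
Per3, chr4:151044801-151044890, minus strand, D-boxes: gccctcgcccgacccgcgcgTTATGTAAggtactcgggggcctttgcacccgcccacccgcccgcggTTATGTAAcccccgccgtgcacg
Arntl, chr7:113207531-113207557, plus strand, RORE core: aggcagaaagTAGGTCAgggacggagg

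The targeted gene did not follow the labels at both times. Without recovery Ogt stood at 64.7 CPM in the control-labelled library and 55.3 CPM in the OGT-KO-labelled library, and at 7 days at 55.7 and 77.7 CPM, higher in the OGT-KO-labelled library. Gene totals do not separate the reads of deleted exons, and libraries are called by their labels throughout. Oga, the enzyme that removes O-GlcNAc, stood at 57.7 and 46.5 CPM without recovery and at 70.2 and 57.0 CPM at 7 days, lower in the OGT-KO-labelled library at both times. Library totals ranged from 19972699 to 22866431 reads, so 3 reads corresponded to 0.131 to 0.150 CPM. The 100 most abundant genes took 42.8 and 45.0% of the reads in the control-labelled libraries and 34.1 and 34.3% in those labelled OGT-KO. The median gene was 0.51 (no recovery) and 0.48 (7 days) log2 units higher in the OGT-KO-labelled library when totals were set equal, and -0.19 and -0.18 under scaling to the median gene ratio (median-ratio scaling). Ogt itself differed by -0.22 and 0.47 log2 units under equal totals and by -0.93 and -0.20 under median-ratio scaling.

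Under equal totals the activators Arntl and Clock differed by less than 1.5-fold between labels, while the weakly expressed Npas2 was higher in the OGT-KO-labelled libraries. Arntl (chromosome 7, 113207465 to 113314126, plus strand; GRCm38 coordinates of GENCODE M21 here and below) stood at 11.4 CPM in the control-labelled library and 13.7 CPM in the OGT-KO-labelled library without recovery, and at 9.36 and 12.7 CPM at 7 days. Both OGT-KO-labelled libraries lay above both labelled control, by 0.25 and 0.40 log2 units of log2(CPM + 1). Under median-ratio scaling the order turned, to -0.42 and -0.22. Clock (chromosome 5, 76209868 to 76304792, minus strand) stood at 44.5 and 35.2 CPM without recovery and at 35.8 and 37.0 CPM at 7 days, so the groups overlapped. Its ratio of the OGT-KO-labelled library to that labelled control was 0.791 (95% counting interval 0.719 to 0.870) without recovery and 1.03 (0.934 to 1.14) at 7 days. In log2 units these are -0.33 and 0.05, which became -1.03 and -0.62 under median-ratio scaling. Npas2 (chromosome 1, 39193731 to 39363236, plus strand) was at 2.82 CPM (60 reads) and 5.47 CPM (125 reads) without recovery, and at 1.85 CPM (37 reads) and 7.89 CPM (178 reads) at 7 days. The ratio was 1.94 (1.41 to 2.68) and then 4.26 (2.97 to 6.24), and its log2 differences were above 0 under median-ratio scaling too (0.19 and 1.11). These intervals, exact binomial ones as are all intervals here, cover counting error only, not the spread between mice or pools.

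Among the repressors, Per1 and Cry1 were higher in the OGT-KO-labelled libraries. Per1 (chromosome 11, 69095217 to 69109960, plus strand), a PER gene that also responds to glucocorticoid and cAMP signals, stood at 24.3 CPM in the control-labelled library and 81.4 CPM in that labelled OGT-KO without recovery, and at 10.1 and 22.7 CPM at 7 days. At each time the OGT-KO-labelled library was the higher one, but the OGT-KO-labelled library at 7 days lay under the control-labelled library without recovery. The ratio was 3.35 (3.03 to 3.70) without recovery and 2.26 (1.92 to 2.67) at 7 days, or 1.70 and 1.10 in log2 units, against 0.999 and 0.46 under median-ratio scaling. Cry1 (chromosome 10, 85131700 to 85185064, minus strand), the CRY protein gene that is repressed by REV-ERBs, stood at 8.75 and 15.7 CPM without recovery and at 5.46 and 15.4 CPM at 7 days. Both OGT-KO-labelled libraries lay above both labelled control, with ratios of 1.79 (1.499 to 2.15) and 2.83 (2.27 to 3.54). This order held under median-ratio scaling, where the log2 differences were 0.11 and 0.73 in place of 0.78 and 1.35.

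At each time Per2 and Per3 differed less between the labels than Per1 and Cry1 did under equal totals. Per2 (chromosome 1, 91415982 to 91459324, minus strand) stood at 22.3 and 29.6 CPM without recovery and at 13.3 and 16.7 CPM at 7 days, with ratios of 1.33 (1.18 to 1.497) and 1.26 (1.08 to 1.48). Its log2 differences of 0.39 and 0.32 were smaller than the shift of the median gene and became -0.30 and -0.33 under median-ratio scaling. Per3 (chromosome 4, 151003652 to 151044665, minus strand), the PER gene with 2 D-boxes in the window shown above, stood at 11.8 and 13.3 CPM without recovery and at 9.46 and 17.5 CPM at 7 days. Its ratio was 1.13 (0.953 to 1.34) without recovery, an interval that includes 1, and 1.85 (1.56 to 2.22) at 7 days. Under median-ratio scaling its log2 differences were -0.50 and 0.19.

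Nr1d1 and Dbp were lower in both OGT-KO-labelled libraries than in either control-labelled library, under equal totals and under median-ratio scaling. Nr1d1 (chromosome 11, 98767932 to 98775333, minus strand), the main REV-ERB of liver, stood at 145 CPM in the control-labelled library and 111 CPM in that labelled OGT-KO without recovery, and at 189.96 and 108.9 CPM at 7 days. The ratio was 0.762 (0.722 to 0.803) without recovery and 0.573 (0.545 to 0.603) at 7 days. Dbp (chromosome 7, 45705088 to 45710203, plus strand) stood at 65.0 and 47.3 CPM without recovery and at 89.0 and 53.9 CPM at 7 days, with ratios of 0.728 (0.671 to 0.789) and 0.606 (0.563 to 0.652). On the log2 scale the differences were -0.39 and -0.80 for Nr1d1 and -0.45 and -0.71 for Dbp. With median-ratio scaling they were -1.10 and -1.48 for Nr1d1 and -1.16 and -1.39 for Dbp. Nr1d2 (chromosome 14, 18204054 to 18239127, minus strand), the second REV-ERB, stood at 61.2 and 57.1 CPM without recovery and at 67.2 and 62.9 CPM at 7 days. Its ratios of 0.934 (0.864 to 1.01) and 0.935 (0.867 to 1.01) had intervals that include 1, and its log2 difference of -0.10 at both times became -0.80 and -0.77 under median-ratio scaling.

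**Figure D1:**
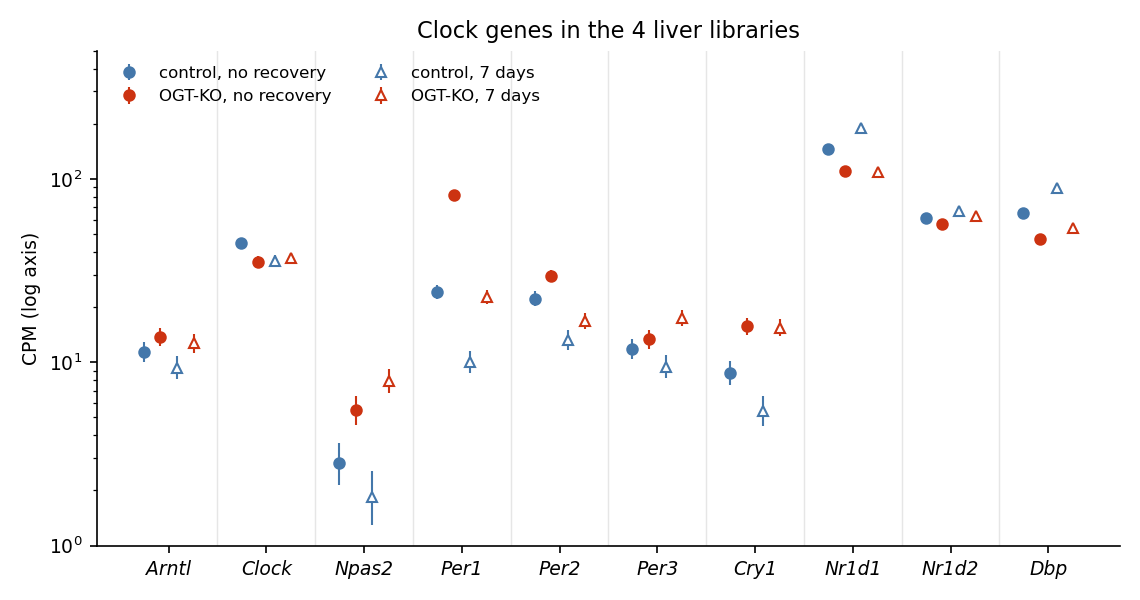
CPM on a log axis of each clock gene in the 4 libraries, with the 95% counting interval as bars; each point is 1 library of RNA pooled from 3 mice. The OGT-KO-labelled libraries sit above those labelled control for Per1 at each time (81.4 against 24.3 CPM and 22.7 against 10.1 CPM) and under them for Nr1d1 and Dbp.

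Counted by a 2-fold difference, 1 of the 9 compared clock genes (Per1) was higher in the OGT-KO-labelled library without recovery, beside 24.4% of all compared genes, and 0 were lower, beside 5.69%. At 7 days 2 of 9 (Per1 and Cry1) were higher, beside 22.9%, and 0 were lower, beside 4.27%. Cry1 reached the mean of 10 CPM only through the OGT-KO-labelled libraries, where it is high (means of 7.10 CPM in the control-labelled and 15.6 CPM in the OGT-KO-labelled libraries), as did 1268 of the 8963 genes, and without it 1 of 8 was higher at 7 days. These differences of single libraries have no replicate check. The median log2 difference over the 9 genes was 0.16 without recovery and 0.32 at 7 days, against 0.51 and 0.48 over all compared genes. Under median-ratio scaling the counts turned. None was higher without recovery (10.4% of all genes), where Per1 at 0.999 log2 units lay just under the threshold, or at 7 days (11.6%). Clock, Nr1d1 and Dbp were lower without recovery (15.4% of all genes), and Nr1d1 and Dbp at 7 days (11.8%). Of the 9 compared genes, 3 (Arntl, Per3 and Cry1) had both OGT-KO-labelled libraries above both labelled control, as had 70% of all compared genes, and 2 (Nr1d1 and Dbp) had both below, as had 16.6%. With median-ratio scaling 1 (Cry1) was above, beside 29.5%, and 5 (Arntl, Clock, Nr1d1, Nr1d2 and Dbp) were below, beside 51.5%.

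A limma fit over the 4 libraries, with label and time as terms, tested the label difference across both times, adjusted over the 8963 genes by the Benjamini-Hochberg method. Per1 rose by 1.40 ± 0.18 (SE) log2 units (adjusted p = 0.000648) and Cry1 by 1.06 ± 0.22 (adjusted p = 0.00565) in the OGT-KO-labelled libraries, Cry1 with the limit on its filter given above. Nr1d1 fell by 0.59 ± 0.15 (adjusted p = 0.0111) and Dbp fell by 0.58 ± 0.13 (adjusted p = 0.00778). The other 5 did not pass, with limma values of 0.35 for Per2 (adjusted p = 0.0615), 0.49 for Per3 (adjusted p = 0.0796), 0.33 for Arntl (adjusted p = 0.152), -0.14 for Clock (adjusted p = 0.406) and -0.10 for Nr1d2 (adjusted p = 0.502). Among all compared genes 57% passed higher and 11.5% lower, a split that became 19 and 34.7% under median-ratio scaling. In that scaling limma called Per1 higher (0.73, adjusted p = 0.0184) and called Nr1d1, Dbp, Clock and Nr1d2 lower, while Cry1 did not pass (0.42, adjusted p = 0.172). The edgeR fit of the recovered reads called the same 5 clock genes as the median-ratio fit (Per1 higher, and Nr1d1, Dbp, Clock and Nr1d2 lower), beside 20.2% of all genes higher and 33.4% lower. The fit leaves 1 residual degree of freedom and takes the label difference as equal at both times. With label as the only term, and hence 2 libraries per label, the Per1 difference of 1.40 no longer passed (limma adjusted p = 0.101), and it was 0.50 when the OGT-KO-labelled library without recovery was also left out, 0.80 when the control-labelled library at 7 days was, and 2.00 when the control-labelled library without recovery was, none past the threshold (limma adjusted p = 0.434, 0.365 and 0.0592). It was 2.30 and passed (limma adjusted p = 0.0181) when the OGT-KO-labelled library at 7 days was left out. Cry1 passed in each of the 4 omissions. Nr1d1 and Dbp passed with label alone (limma adjusted p = 0.0183 and 0.0301). Of the omissions they passed when the control-labelled library without recovery was left out, at -0.79 and -0.81. Without the control-labelled library at 7 days they were -0.40 and -0.36 (limma adjusted p = 0.0996 and 0.148), without the OGT-KO-labelled library at 7 days -0.58 and -0.67 (limma adjusted p = 0.0557 and 0.0516), and without that label's library of no recovery -0.60 and -0.49 (limma adjusted p = 0.0554 and 0.120).

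**Figure D2:**
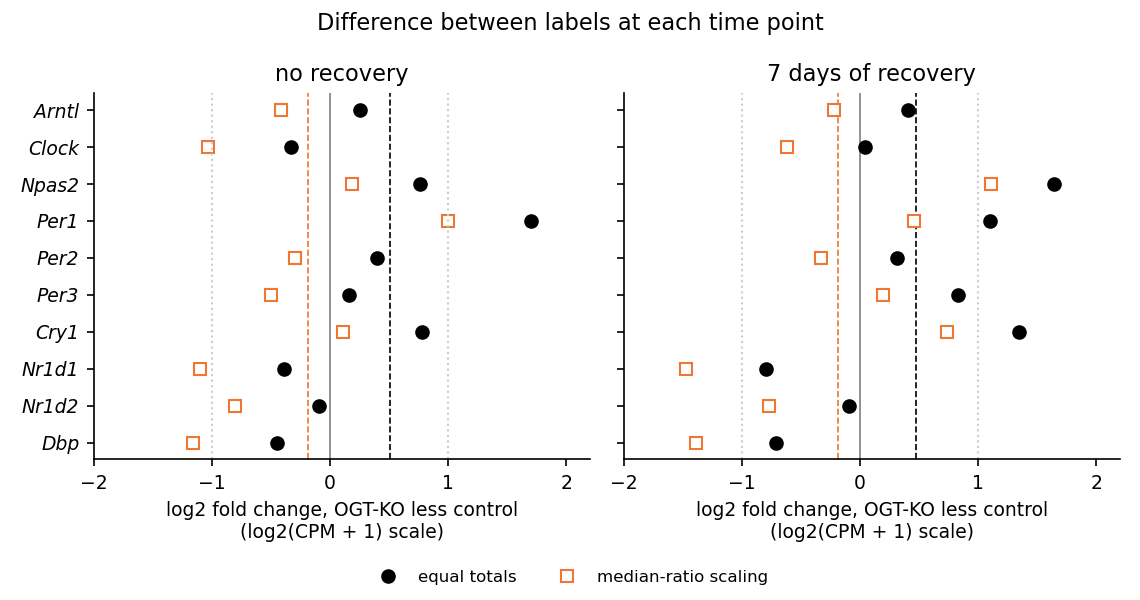
Log2 difference of each clock gene between the OGT-KO-labelled library and that labelled control, without recovery and at 7 days, under equal totals and under median-ratio scaling; dashed lines mark the median of all compared genes under each scaling and dotted lines a 2-fold difference. Nr1d1 and Dbp lie left of 0 in both panels and under both scalings, while Arntl and Per2 change side with the scaling.

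Ratios of clock genes within a library depend on the scaling of libraries only through the 1 CPM added before the logarithm. Those of Arntl to Nr1d1 and Dbp, and of Npas2 to Nr1d1, were higher in the OGT-KO-labelled libraries at both times. The log2 ratio of Arntl to Nr1d1 was 0.64 higher in the OGT-KO-labelled library without recovery and 1.20 higher at 7 days, and that of Arntl to Dbp was 0.70 and 1.12 higher. Nr1d1 and Dbp were themselves lower there, while the median compared gene was 0.51 and 0.48 higher, against 0.25 and 0.40 for Arntl. A gene at that median would therefore show larger rises against Nr1d1 and Dbp than Arntl did. The ratio of Npas2 to Nr1d1 was 1.15 and 2.44 higher (1.29 and 2.59 under median-ratio scaling, chosen for the ratios after seeing the data). Between both REV-ERBs, the ratio of Nr1d1 to Nr1d2 differed by -0.29 without recovery and -0.70 at 7 days. In contrast, the ratio of Arntl to Per2 differed by -0.14 and 0.09. Cry1 to Per2 was 0.38 and 1.03 higher, and Clock to Npas2 differed by -1.09 and -1.59 (-1.22 and -1.73 under median-ratio scaling). The mean log2 level of Arntl, Npas2, Clock and Cry1 less that of Per1, Per2, Per3, Nr1d1, Nr1d2 and Dbp was 0.14 higher without recovery and 0.75 higher at 7 days. That mean includes Npas2, which is under the filter, and Cry1, with the limit on its filter given above. At 7 days their label differences were 1.64 and 1.35, against 0.40 for Arntl and 0.05 for Clock. The subtracted genes ranged from 1.10 (Per1) to -0.80 (Nr1d1). The ratios and this difference of means were not tested.

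The label differences at the 2 times were not more than 2-fold apart for any of the 9 compared genes, beside 2.73% of all compared genes. The difference was 0.66 log2 units larger at 7 days for Per3 and 0.57 larger for Cry1. The same quantity was -0.60 for Per1, whose label difference was smaller at 7 days, and -0.41 for Nr1d1, whose label difference was further below 0. Npas2, under the filter, had 0.88. Arntl, Per2 and Nr1d2 had 0.15, -0.08 and 0.00. No test of these was made, because the design holds 1 library in each condition.

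Recovery was compared within each label, and Per1 and Per2 were lower at 7 days in both. Per1 went from 24.3 to 10.1 CPM in the control-labelled libraries, a ratio of 0.414 (0.350 to 0.488), and from 81.4 to 22.7 CPM in those labelled OGT-KO, a ratio of 0.279 (0.253 to 0.308). Per2 went from 22.3 to 13.3 CPM and from 29.6 to 16.7 CPM, ratios of 0.596 (0.511 to 0.695) and 0.567 (0.498 to 0.644). In both genes each 7-day library lay below both libraries without recovery, as in 4.42% of all compared genes, and this held under median-ratio scaling (5.65% of genes). Nr1d2 was the clock gene with both 7-day libraries above both others, as in 2.93% of all compared genes, by 0.13 and 0.14 log2 units. Under median-ratio scaling its libraries overlapped and 0 of the 9 clock genes had this order, beside 5.13% of genes.

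Per1 was the only clock gene that differed 2-fold with recovery, in the control-labelled libraries (1 of 9, beside 0.96% of all compared genes lower) and in those labelled OGT-KO (1 of 9, beside 0.435%). None was 2-fold higher, beside 0.245 and 1.04%. Of the 8963 genes, 7 (0.0781%) were at least 2-fold lower at 7 days in both labels, and 0 were higher in both. The other 6, named after their values were seen, are Atf3 and Ddit3 (stress-induced transcription factors), Hspa1b (an inducible heat shock protein), Tsc22d3 (a glucocorticoid-induced gene), Ccn2 (a matricellular protein) and Plk3 (a kinase). Hspa1b, for instance, went from 48.2 to 4.66 CPM in the control-labelled libraries and from 12.2 to 4.03 CPM in those labelled OGT-KO, and Tsc22d3 from 75.6 to 26.3 and from 71.1 to 31.9 CPM. In the limma fit the time term was -1.495 ± 0.175 (SE) for Per1 (adjusted p = 0.199) and -0.74 ± 0.14 for Per2 (adjusted p = 0.275), so neither passed. No gene of the 8963 passed for time in limma or in edgeR, where 640 and 600 genes were under an unadjusted p of 0.05, among them Per1, Per2 and Dbp in each.

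Nr1d1 and Dbp had higher ratios with recovery in the control-labelled libraries than in the OGT-KO-labelled ones. Nr1d1 was higher at 7 days in the control-labelled libraries, with a ratio of 1.31 (1.25 to 1.37), while the ratio was 0.985 (0.931 to 1.04) in those labelled OGT-KO. Dbp had ratios of 1.37 (1.28 to 1.47) and 1.14 (1.05 to 1.24). For Cry1 the log2 difference with recovery was -0.59 in the control-labelled libraries and -0.02 in those labelled OGT-KO, and for Per3 it was -0.29 and 0.37. Arntl had -0.26 and -0.10, Clock -0.31 and 0.07, and Npas2 -0.42 and 0.46. These differences between labels in recovery are the same values as the differences between times given above and were not tested.

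**Figure D3:**
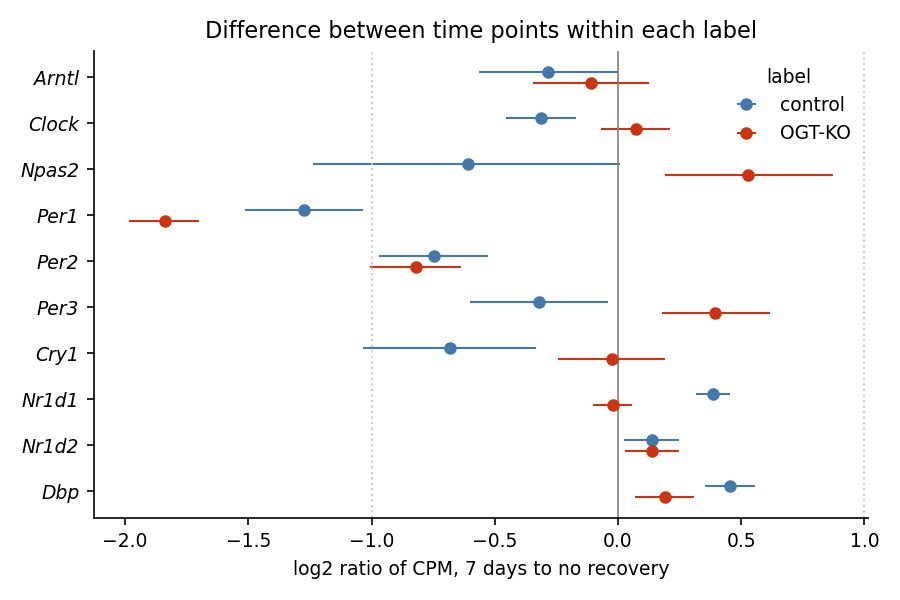
Log2 ratio of CPM of each clock gene, the 7-day library to the library without recovery, for the control-labelled and the OGT-KO-labelled libraries, with 95% counting intervals as bars. Per1 (ratios 0.414 and 0.279) and Per2 (0.596 and 0.567) lie left of 0 in both labels.

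Other genes of the loop, of liver outputs and of inputs to the clock were counted as lists. Of 23 other loop genes, 22 were found and 17 were compared. Without recovery 5 were at least 2-fold higher in the OGT-KO-labelled library and 1 lower (24.4 and 5.69% of all compared genes), with a median of 0.55 against 0.51 over all compared genes. At 7 days 3 were higher and 1 lower (22.9 and 4.27%), with a median of 0.42 against 0.48, and in the limma fit 11 passed higher and 2 lower (Hlf and Tef; 57 and 11.5% of all compared genes). Under median-ratio scaling 2 were higher and 3 lower without recovery (10.4 and 15.4% of all compared genes), with a median of -0.15 against -0.19. In that scaling 1 was higher and 2 lower at 7 days (11.6 and 11.8%), with a median of -0.22 against -0.18. In the limma fit of that scaling and in edgeR, 2 passed higher (Timeless and Csnk1e) and 6 lower, Hlf and Tef among them. Over all compared genes, 19 and 34.7% passed higher and lower in that limma fit, and 20.2 and 33.4% in edgeR. Timeless and Csnk1e reached the filter only through the OGT-KO-labelled libraries, and without them 3 of 15 were 2-fold higher without recovery and 1 of 15 at 7 days. The fifth of the higher genes without recovery, outside those described next, was Prkaa1 (1.01), a subunit of the energy sensor AMPK. Csnk1e, a casein kinase that phosphorylates PER proteins, stood at 7.24 CPM (control) and 40.4 CPM (OGT-KO) without recovery and at 7.21 and 36.4 CPM at 7 days. Csnk1d, its close relative, stood at 72.6 and 146.8 CPM and at 63.9 and 129.7 CPM. Timeless, a replication fork protein related to the fly clock gene, stood at 5.41 and 22.3 CPM and at 8.46 and 22.1 CPM, and Sfpq, an RNA-binding protein, at 57.9 and 162 CPM and at 77.3 and 129 CPM. Hlf, a D-box binding factor of the family of Dbp, was lower in the OGT-KO-labelled libraries, at 40.9 and 10.4 CPM without recovery (-1.87) and at 40.5 and 19.2 CPM at 7 days (-1.04). Tef, the third member of that family, stood at 84.0 and 67.4 CPM and at 82.6 and 63.0 CPM, and fell in the limma fit. Dbp, Hlf and Tef, the last named after its values were seen, all had both OGT-KO-labelled libraries below both labelled control. Of all compared genes, 16.6% had this order under equal totals and 51.5% under median-ratio scaling.

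Liver output genes moved in both directions. Of 17 genes, all found and 15 compared, 3 were 2-fold higher and 3 lower at each time (24.4 and 5.69% of all compared genes without recovery, 22.9 and 4.27% at 7 days), with medians of 0.03 and 0.30 against 0.51 and 0.48, and in the limma fit 5 passed higher (Nampt, Tspan4, Por, Cdkn1a and Cyp2a5) and 4 lower (Elovl3, Upp2, Cyp7a1 and Gys2), beside 57 and 11.5%. Under median-ratio scaling 2 were higher and 6 lower without recovery (10.4 and 15.4% of all compared genes), with a median of -0.65 against -0.19. In that scaling 1 was higher and 5 lower at 7 days (11.6 and 11.8%), with a median of -0.38 against -0.18. In edgeR, Cdkn1a and Cyp2a5 passed higher and 7 passed lower, the 4 above with Lpin1, Alas1 and St3gal5. Over all compared genes, 20.2% passed higher and 33.4% lower in that fit. Cdkn1a reached the filter only through the OGT-KO-labelled libraries. Elovl3, an elongase of long fatty acids, stood at 438 CPM (control) and 26.2 CPM (OGT-KO) without recovery and at 264 and 24.2 CPM at 7 days. Upp2, a uridine phosphorylase of liver, stood at 151 and 12.5 CPM and at 147.5 and 40.9 CPM. Gys2, the glycogen synthase of liver, stood at 127 and 55.0 CPM and at 126 and 59.4 CPM. On the other side, Cdkn1a, the gene of the cell cycle inhibitor p21, stood at 10.9 and 191 CPM and at 5.86 and 93.1 CPM, and Cyp2a5, a cytochrome P450, at 649 and 2646 CPM and at 560 and 1751 CPM. Tspan4, a tetraspanin, was 1.30 log2 units higher without recovery, and Nampt, the enzyme that makes nicotinamide mononucleotide, 1.01 higher at 7 days. With recovery, 1 of the 15, Noct (the rhythmic gene of nocturnin), was 2-fold lower in the control-labelled libraries, at 50.7 and 10.3 CPM, beside 0.96% of all compared genes. In those labelled OGT-KO, Upp2 and Cyp7a1 (the rate-limiting enzyme of bile acid synthesis) were 2-fold higher at 7 days, beside 1.04% of all compared genes. Lpin1 (a phosphatidate phosphatase) and Cdkn1a were 2-fold lower there, beside 0.435%.

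Of 9 input genes, all found and 8 compared, 3 were higher without recovery (24.4% of all compared genes) and 2 at 7 days (22.9%), with 0 lower at either time (5.69 and 4.27%). The medians were 0.52 and 0.26 against 0.51 and 0.48, and in the limma fit 4 passed higher (Fkbp5, Sgk1, Cirbp and Rbm3) and 1 lower (Prkaa2, another AMPK subunit), beside 57 and 11.5%. Under median-ratio scaling the medians were -0.15 and -0.41 against -0.19 and -0.18. In that scaling 2 were higher and 1 lower without recovery (10.4 and 15.4% of all compared genes), and 1 of each at 7 days (11.6 and 11.8%). In edgeR, Sgk1 and Rbm3 passed higher and Nr3c1 (the glucocorticoid receptor), Tsc22d3 and Prkaa2 lower, while Fkbp5 and Cirbp did not pass. Over all compared genes, 20.2% passed higher and 33.4% lower in that fit. Sgk1, a glucocorticoid-induced kinase, stood at 13.5 CPM (control) and 73.1 CPM (OGT-KO) without recovery and at 6.96 and 65.2 CPM at 7 days. Rbm3, a cold-induced RNA-binding protein, stood at 26.6 and 98.6 CPM and at 31.6 and 91.2 CPM. Fkbp5, another glucocorticoid target, stood at 23.8 and 54.3 CPM without recovery and at 35.8 and 42.6 CPM at 7 days. Tsc22d3, also induced by glucocorticoids, differed by -0.09 and 0.27 log2 units between the labels.

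**Figure D4:**
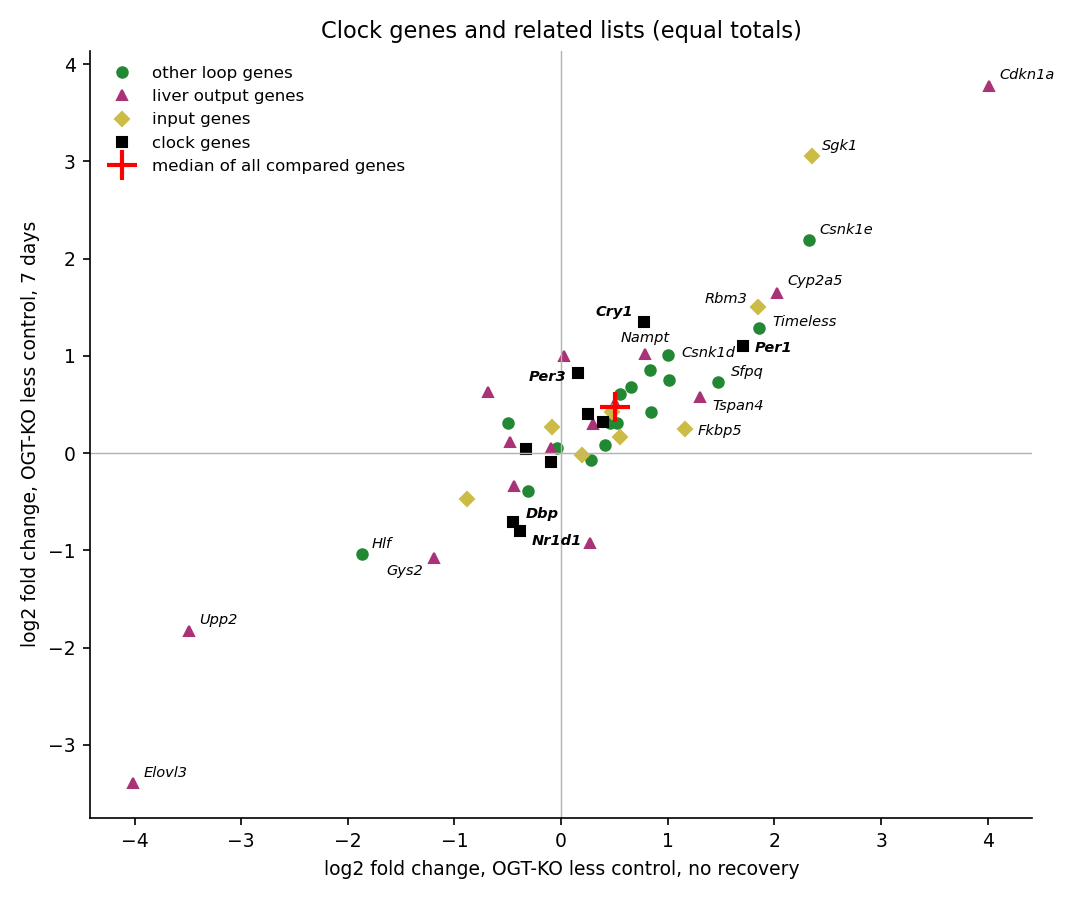
Log2 difference between the OGT-KO-labelled library and that labelled control without recovery (horizontal) and at 7 days (vertical), under equal totals, for the compared clock genes (black squares) and 3 lists of related genes; the red cross is the median of all compared genes at 0.51 and 0.48. Elovl3 (-4.01 and -3.39) and Upp2 (-3.49 and -1.82) lie far down and left, Cdkn1a (4.02 and 3.78) far up and right, and Per1 (1.70 and 1.10) is the clock gene furthest to the right.

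Cell markers moved with the label as well. The summed level of 9 hepatocyte markers was 79086 CPM in the control-labelled library and 55329 CPM in that labelled OGT-KO without recovery, and 87762 and 67203 CPM at 7 days, which marks all 4 libraries as liver. Most of each sum was Alb, at 47845 and 41362 CPM without recovery. Of the 9 markers, 8 were lower in the OGT-KO-labelled library without recovery and 7 at 7 days. Tat was higher at both times (1455 and 1609 CPM, then 600 and 823 CPM), and Ass1 was level at 7 days (3097 and 3101 CPM). Summed markers of bile ducts (5 genes) were 53.7 and 1148 CPM and 69.6 and 1457 CPM, those of stellate cells (6 genes) 136 and 1515 CPM and 97.0 and 1776 CPM, and those of macrophages (6 genes) 106 and 336 CPM and 39.7 and 262 CPM. Endothelial markers (6 genes) stood at 176 and 317 CPM and at 125 and 231 CPM. Neutrophil markers (3 of 4 found) ranged from 1.001 to 23.4 CPM, B cell markers (3 of 4 found) from 0.901 to 3.63 CPM, and T and NK cell markers (2 of 6 found) from 0.350 to 3.63 CPM, with Cd8a at 0 in the control-labelled library at 7 days. All 31 markers found outside the hepatocyte list were higher in the OGT-KO-labelled library at both times under equal totals, and 28 were under median-ratio scaling, where the endothelial markers Kdr, Stab2 and Clec4g were lower at both times, and the part of these cells in the clock gene values was not tested. In bulk tissue, fewer cells of a type and less RNA per cell cannot be told apart.

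Compared between genes per length, as CPM per kb of exon, Nr1d1 was the highest clock gene in every library, at 47.2 and 35.9 CPM per kb without recovery (control, then OGT-KO) and 61.7 and 35.4 at 7 days. Dbp came next, at 21.7 and 15.8 and then 29.7 and 18.0 CPM per kb, and Npas2 was last in every library, at 0.589 and 1.14 and then 0.387 and 1.65 CPM per kb. In the control-labelled library without recovery the order after Dbp was Nr1d2 (11.3), Per1 (4.32), Per2 (3.80), Clock (3.25), Cry1 (2.62), Arntl (1.51) and Per3 (1.23), where the counting intervals of Per1 and Per2, and of Arntl and Per3, overlapped. Per1 took the third place in the OGT-KO-labelled library without recovery, at 14.5 CPM per kb against 10.6 for Nr1d2. Its interval overlapped that of Dbp (15.8) there, and the intervals of Npas2 (1.14) and Per3 (1.39) overlapped each other. At 7 days in the control-labelled library Per1 had gone to 1.79 CPM per kb, under Clock (2.61) and Per2 (2.27), and its interval overlapped those of Per2 and Cry1 (1.63). In the OGT-KO-labelled library at 7 days Cry1 came next after Nr1d2 (11.6), at 4.62 CPM per kb, with an interval that overlapped that of Per1 (4.04), and Per3 (1.83), Arntl (1.69) and Npas2 (1.65) had intervals that overlapped each other.

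The compared genes whose levels over the 4 libraries most resembled those of Arntl, by Euclidean distance of log2(CPM + 1) centred on each gene's mean, were Ttc23 (0.030), Gosr2 (0.031), Hbs1l (0.035), 1810049J17Rik (0.036) and Rnf215 (0.036). A total of 4002 genes lay within a distance of 0.5 of Arntl, so its pattern is a common one in these libraries. For Dbp the nearest were Nat2 (0.108), Tcp11l2 (0.129), Pid1 (0.130), Rcl1 (0.142) and Ulk1 (0.151), and 648 genes lay within 0.5.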

How the data were processed

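Per the labels, RNA of about 60 mg of liver was isolated with TRIzol, and libraries came from a Tecan kit for mRNA. The authors deposited 1 table of CPM, whose 4 columns each sum to 1000000; it is named for DESeq2, and the submitters' processing notes name STAR, DESeq2 and GRCm39, with no versions or roles. All values were whole multiples of 1 read within 0.01, so reads were recovered. Members and lists were chosen with earlier results of these data known. Levels were compared as log2(CPM + 1), a scale that understates changes of low genes, at a mean of at least 10 CPM, with a 2-fold difference as the call. limma 3.58.1 (R 4.3.3; eBayes with trend, threshold 0.05) fitted label and time over the 4 libraries, and edgeR 4.0.16 (quasi-likelihood, TMM) the recovered reads; both were tested on simulated data. Counting intervals are exact 95% ones. The libraries are pools with 1 in each condition, so p-values do not measure the spread between mice or between pools of a condition. The 1 residual degree of freedom holds the departure from an equal label difference at both times. limma adds a spread borrowed from the other genes, worth 5.54 degrees of freedom. Pseudocounts, filters, scalings, fold thresholds and left-out libraries were varied. The named genes are the 10 clock genes, Ogt and Oga, and, from each list and label comparison, up to 3 genes called in each direction, largest first; genes outside this rule are given as examples chosen after their values were seen (Tef, Tsc22d3, Prkaa1, genes named with a count of 5 or fewer, and those lower with recovery in both labels). Gene positions and lengths came from GENCODE M21 (GRCm38) and promoters from RefSeq. No floor was applied to the CPM values, and the level of 3 reads is given for reference only.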

Additional observations from a re-analysis of the deposited data

Results flagged for a closer look

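Several genes moved in opposite directions in the 2 labels or at the 2 times, with 1 library in each condition. Those described below are clock genes, Ogt and genes named by rule from the lists, and other list genes did so too. Under equal totals, label differences without recovery and at 7 days were -0.69 and 0.63 for Noct and 0.27 and -0.93 for Lpin1. None of these differences was tested. Per3 had a log2 difference with recovery of -0.29 in the control-labelled libraries and 0.37 in those labelled OGT-KO, a gap of 0.66, with ratios of 0.801 (counting interval 0.660 to 0.972) and 1.32 (1.13 to 1.53). Ogt differed between labels by -0.22 without recovery and 0.47 at 7 days, a gap of 0.70, and with recovery by -0.21 in the control-labelled libraries and 0.48 in those labelled OGT-KO, which is the same gap. Under median-ratio scaling both label differences of Ogt were below 0, at -0.93 and -0.20. With recovery, control-labelled libraries first, Fkbp5 had 0.57 and -0.34 (gap -0.91), Rbm3 had 0.24 and -0.11 (gap -0.35), Sfpq had 0.41 and -0.33 (gap -0.74), and Tspan4 had 0.59 and -0.14 (gap -0.73).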

How the results depend on the processing

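Of 160 repeats of the clock genes' differences between pairs of libraries under another pseudocount or scaling, 112 moved by less than their counting interval, 48 moved by more, and 0 of those past 2-fold changed direction. The count 2-fold higher with no recovery (1) became 0 with a mean of at least 50 CPM, median-ratio scaling or a 4-fold threshold and 2 at 1.5-fold; the count lower (0) became 3 with median-ratio scaling. The count higher after 7 days (2) became 0 with a pseudocount of 10, a mean of at least 50 CPM, median-ratio or upper-quartile scaling or a 4-fold threshold, and the count lower (0) became 2 with median-ratio or upper-quartile scaling or at 1.5-fold. The recovery counts lower (1 in each label) became 0 with a mean of at least 50 CPM or a 4-fold threshold, and also with a pseudocount of 10 in the libraries labelled control; at 1.5-fold they became 3 (control) and 2 (OGT-KO). Beside these changed 2-fold counts, shares of all genes are given above only for the label counts under median-ratio scaling. For the other settings, a change in the count of clock genes cannot be set against a change over all genes. The label term of the 4-library fit called 2 higher, which became 1 in edgeR, with median-ratio scaling and with label as the only term. The 2 that it called lower became 4 in edgeR and 4 with median-ratio scaling. Over all genes that term called 5112 higher and 1031 lower in limma, 1705 and 3114 with median-ratio scaling, and 1814 and 2990 in edgeR. It turned to -0.31 (edgeR) and -0.32 (median-ratio) for Arntl, -0.29 and -0.31 for Per2, and -0.14 and -0.16 for Per3. With 1 library left out and label as the only term, the time difference enters the label estimate. That estimate ranged from -0.29 to 0.011 for Clock and from -0.037 to 0.75 for Per2. With time as the only term, so that the label difference enters the estimate, the time difference ranged from -0.38 to 0.022 for Arntl, -0.28 to 0.047 for Clock, -0.37 to 0.45 for Per3, -0.98 to 0.36 for Cry1, -0.22 to 0.58 for Nr1d1 and -0.039 to 0.67 for Dbp. In these values the cause was not tested, except that equal totals and the other scalings differ by construction. Of 16 ratios within a library, 6 moved by over 0.1 with a pseudocount of 0.1 and 4 with median-ratio scaling, an alternative chosen after seeing the data as were those for the list counts, and none changed direction. With 1 library per condition, an omission leaves a single library in an arm, which is assumed to vary like the others. No paired analysis was possible because each condition has 1 library and so no replicate numbers to block on, beyond the time term already in the 4-library fit. Depth limits Npas2 most, at 37 to 178 reads.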
